A study of Mus musculus with 3 samples.

Results

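The Zscan4 genes form a family on mouse chromosome 7, and Zscan4a, Zscan4b, Zscan4c, Zscan4d, Zscan4e and Zscan4f were examined here by the gene name that the array files give to each probe. Of these 6 genes, 4 carried a probe under their own name, with 5 probes in all out of 56605 on the array. Zscan4a, Zscan4b and Zscan4f had 1 probe each and Zscan4c had 2, while Zscan4d and Zscan4e were not read under their own names. RNA came from Hepa1c1c7 cells, a mouse hepatoma line, transfected with a Cd74 vector, a Tmem54 vector or an empty vector as control. Cd74 encodes the invariant chain of MHC class II, which also acts as a receptor for the cytokine MIF, and Tmem54 encodes a transmembrane protein. All 3 groups share the cell line, and each has 1 array, so no difference has a spread between cultures and no test was run. The labels give neither the promoter of the vectors, nor the time after transfection, nor whether the cells were pools or clones. The family was selected on these same values, the difference in signal between the arrays, so they are given as a description and not as a test.

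Zscan4 proteins carry a SCAN domain, through which such proteins pair, and zinc fingers that bind DNA. In the mouse embryo the genes are transcribed in a burst at the 2-cell stage, when the zygotic genome is first switched on. In cultures of mouse embryonic stem cells they are on in only a small share of cells at any moment, together with other genes of the 2-cell stage, and Zscan4 has been tied there to telomere lengthening and genome stability. The genes arose by duplication and are nearly identical, so a probe named for 1 of them can read several.

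The 5 probes are shown because their sequences decide which members each one can read. They are printed 5′ to 3′, and capitals mark the 53 bases that the Zscan4a probe and the downstream Zscan4c probe have in common.
Zscan4a probe: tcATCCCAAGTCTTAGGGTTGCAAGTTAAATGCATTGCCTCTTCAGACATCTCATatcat
downstream Zscan4c probe: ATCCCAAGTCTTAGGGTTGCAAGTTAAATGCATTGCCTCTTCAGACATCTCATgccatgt
Zscan4b probe: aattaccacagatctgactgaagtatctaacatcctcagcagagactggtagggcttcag
upstream Zscan4c probe: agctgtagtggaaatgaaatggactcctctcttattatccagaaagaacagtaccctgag
Zscan4f probe: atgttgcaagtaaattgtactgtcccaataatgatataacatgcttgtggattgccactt

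On build mm9, and as given by the array files, the Zscan4a probe lies at chr7:11379679-11379738 on the minus strand and the Zscan4b probe at chr7:11486107-11486166, also on the minus strand. The plus strand holds the upstream Zscan4c probe at chr7:11594425-11594484, the downstream Zscan4c probe at chr7:11595751-11595810 and the Zscan4f probe at chr7:11987608-11987667. The 2 Zscan4c probes start at positions 804 and 2130 of the transcript, and this spacing of 1326 bases is the same on the chromosome. Exon and UTR borders were not analysed here, because no annotation of build mm9 was used.

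Only 1 of the 5 probes is tied to a single RefSeq member. The accession lists in the array files assign the Zscan4a probe to Zscan4a, the downstream Zscan4c probe to Zscan4c and Zscan4a, and the upstream Zscan4c probe to Zscan4c, Zscan4d and Zscan4a. The Zscan4b probe is assigned to Zscan4b, Zscan4c, Zscan4d and Zscan4f, and the Zscan4f probe to Zscan4f, Zscan4c, Zscan4d and Zscan4a. Zscan4d is therefore listed for 3 probes without having one of its own name. In the RefSeq table (assembly GRCm38.p6) Zscan4b, Zscan4c, Zscan4d and Zscan4f are protein-coding, Zscan4a is a transcribed pseudogene and Zscan4e a pseudogene with no transcript accession to match. Over the 58 bases where the Zscan4a and downstream Zscan4c probes overlap, 56 are identical and the differences are A56G and T57C, counted from the 5′ end of the Zscan4a probe, with its base first. These probes read nearly the same stretch of RNA and are not independent measurements. No other pair of the 5 probes had more than 9 bases in 1 run in common, and none of the other 56600 probes on the array held a 20-base run of any Zscan4 probe on either strand (0 probes).

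Zscan4 RNA was lowest on the Cd74 array by every probe, and close to equal on the other arrays. Values are the processed signal of the scanner software, a linear intensity after that software's background and detrending steps, with its model error. The probe for Zscan4f had a signal of 67.9 ± 7.38 with the Cd74 vector, 375 ± 37.6 with the Tmem54 vector and 286 ± 28.8 with the empty vector. The probe for Zscan4b had 68.3 ± 7.33 with Cd74, 334 ± 33.5 with Tmem54 and 290 ± 29.1 with the empty vector. The Cd74 value lies far below the others for both probes, while the intervals of the Tmem54 and empty-vector values come close to each other or overlap. The probe for the pseudogene Zscan4a had 42.6 ± 5.13 with Cd74, 224 ± 22.6 with Tmem54 and 190 ± 19.2 with the empty vector. The downstream Zscan4c probe had 35.7 ± 4.93 with Cd74, 232 ± 23.5 with Tmem54 and 204 ± 20.6 with the empty vector. These overlapping probes thus showed the same order of the arrays. The upstream Zscan4c probe was dim throughout, with 7.66 ± 2.99 on the Cd74 array, where it was not well above background, 35.3 ± 4.64 with Tmem54 and 29.9 ± 4.08 with the empty vector. All other values of the 5 probes were well above background, and none of the 5 spots was saturated or flagged as an outlier. The order Tmem54, empty vector, Cd74 held from high to low for all 5 probes.

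**Figure D1:**
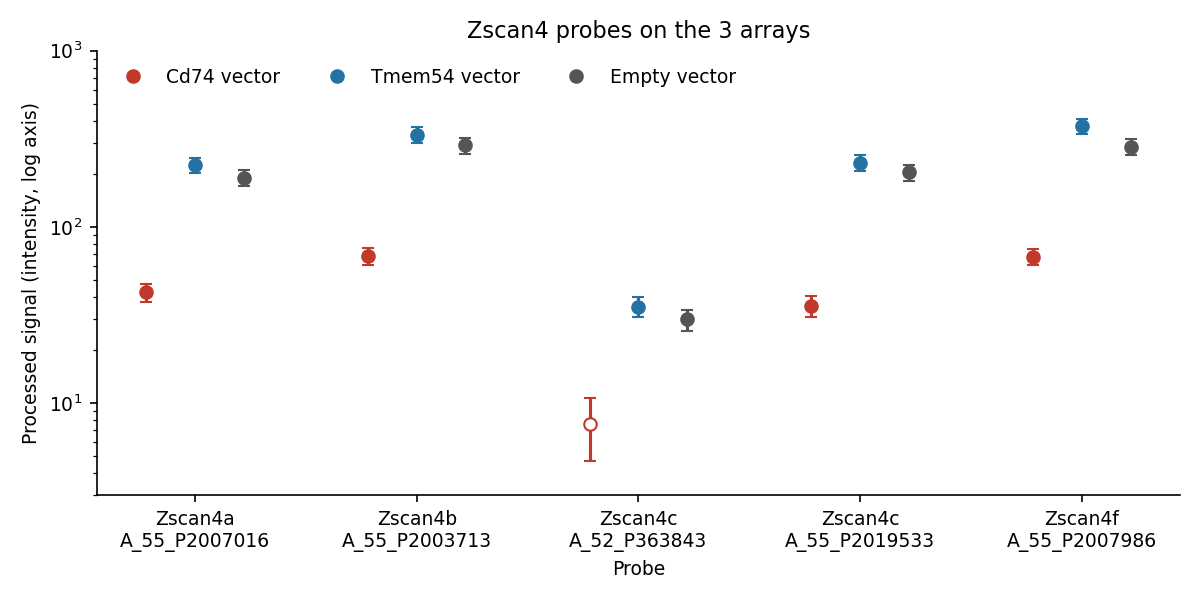
Processed signal (intensity, log axis) of the 5 Zscan4 probes with the Cd74, Tmem54 and empty vectors, 1 array each. Bars are the model error of the scanner software and not a spread between cultures, and the open point is not well above background. The Cd74 points sit between 7.66 and 68.3, each below the other points of its probe.

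Set against the empty vector, the Cd74 array was between 4.03 and 5.46-fold lower for the 4 probes measured on all arrays. For differences, each array was first scaled to its own 75th percentile of signal and put on the log2 scale, where a difference of -1 is 2-fold lower. The downstream Zscan4c probe differed by -2.45 ± 0.25 and the Zscan4a probe by -2.09 ± 0.23, where the error combines the model errors of both arrays. The probes for Zscan4b and Zscan4f differed by -2.02 ± 0.21 and -2.01 ± 0.21. All 4 differences are far larger than their model error, which covers noise within the arrays only. The upstream Zscan4c probe was at least 2.12-fold lower with Cd74, a bound set by the lowest signal well above background on the Cd74 array, 13.5, and its plain log2 difference was -1.90. So 5 of 5 probes were at least 2-fold lower and 0 higher, where 1.25% of all 32103 probes compared were lower and 0.959% higher by that measure. Below 0 were 5 of 5 probes, where 49.3% of all probes were above 0. Nothing is read from these shares, because the contrast chose the family. Among 2201 probes with a mean level within the range of the 4 Zscan4 probes, 1.73% were at least 2-fold lower and 0.409% higher. By the size of the difference the downstream Zscan4c probe ranked number 6 from the lowest of 29843 measured probes, and the Zscan4a, Zscan4b and Zscan4f probes ranked 15, 18 and 20. At least 4-fold lower were 90 probes, or 0.280%.

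The Tmem54 array stayed within 2-fold of the empty vector for every Zscan4 probe, with all 5 slightly higher. The Zscan4f probe differed by 0.38 ± 0.20, the Zscan4a probe by 0.23 ± 0.21 and the upstream Zscan4c probe by 0.23 ± 0.27. The Zscan4b and downstream Zscan4c probes differed by 0.19 ± 0.20 and 0.18 ± 0.21. The difference exceeded its model error for Zscan4f and Zscan4a and lay within it for the other 3 probes. No Zscan4 probe was at least 2-fold higher or lower (0 of 5), against 0.617% of 31921 probes higher and 0.774% lower. Among the 2201 probes of similar level 0.182% were higher and 0.591% lower, and 0.219% of all probes were at least 4-fold lower. Above 0 were 46.8% of these probes, and the Zscan4f probe was above 97.5% of the 29814 measured ones.

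Directly against the Tmem54 vector, the Cd74 array was between 4.64 and 6.18-fold lower for the 4 probes measured on all arrays. The downstream Zscan4c probe differed by -2.63 ± 0.25, Zscan4f by -2.39 ± 0.21, Zscan4a by -2.32 ± 0.23 and Zscan4b by -2.21 ± 0.21. The upstream Zscan4c probe was at least 2.48-fold lower. At least 2-fold lower were 5 of 5 probes, against 1.49% of 31631 probes compared, with 1.39% higher, 0.395% at least 4-fold lower and 52.9% above 0. Among the 2201 probes of similar level 1.73% were lower and 0.954% higher. The Cd74 array is common to this comparison and the first, and the empty-vector array to the first and the second, so the comparisons are not independent of each other.

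**Figure D2:**
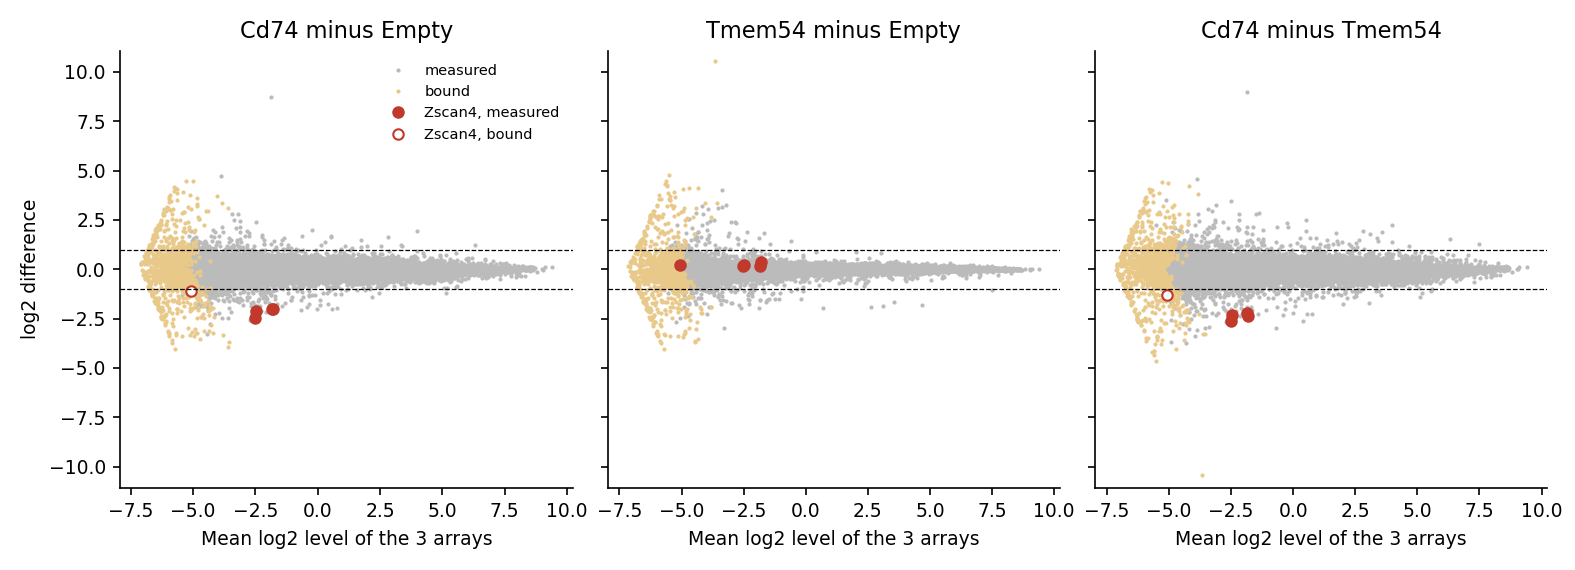
Difference (log2) against the mean log2 level of the 3 arrays, for probes detected on at least 1 of the arrays compared; dashed lines mark 2-fold. The Zscan4 probes (red; open where the difference is a bound) lie between -2.45 and -1.08 for Cd74 minus the empty vector, between 0.18 and 0.38 for Tmem54 minus the empty vector and between -2.63 and -1.31 for Cd74 minus Tmem54.

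The 4 probes measured on all arrays differed little among themselves. Their SD was 0.21 for Cd74 against the empty vector, 0.09 for Tmem54 against the empty vector and 0.18 for Cd74 against Tmem54, each on the log2 scale. With the fifth probe, a bound, the SD was 0.51 for Cd74 against the empty vector and 0.50 against Tmem54. A bound is not a measured difference, so these 2 values do not measure a spread between probes. The plain differences of the fifth probe were -1.90 and -2.13, from a Cd74 signal not well above background. The Zscan4a and downstream Zscan4c probes overlap, so none of these SDs is a spread over independent measurements. The downstream Zscan4c probe was the lowest in both comparisons that hold the Cd74 array, and its near copy, the Zscan4a probe, differed from it by less than the sum of their model errors. The Zscan4f probe had the highest value for Tmem54 against the empty vector. A specific response of 1 member cannot be read from these probes, since 4 of the 5 are listed for more than 1 member. The fifth, named for Zscan4a, is a near copy of the downstream Zscan4c probe and may read Zscan4c RNA as well.

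The raw readings of the spots had the same order. The processed signal is derived from such readings, so they are not a separate measurement. The Zscan4f spot had a mean raw brightness of 104 with Cd74, 428 with Tmem54 and 328 with the empty vector, over a local background of 30.0, 28.0 and 29.0 in the same order. The upstream Zscan4c spot had 43.8 with Cd74, 72.6 with Tmem54 and 66.6 with the empty vector over 25.0, 24.0 and 26.0. Local background thus differed by at most 3 units of brightness between arrays at any of the 5 spots. The spots lie apart on the array, in rows 35, 214, 220, 237 and 379.

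The start regions of the genes are nearly identical. RefSeq promoters were matched for 4 of the 6 genes, from 250 bases before to 50 after the start, and over their aligned bases they were between 95.3% identical, for Zscan4b and Zscan4c, and 99.3% identical, for Zscan4c and Zscan4f. The 250 bases before the start of Zscan4f (chr7:11397665-11397914, build GRCm38.p6, plus strand) are given as the example of a shared start region, with the TATAAA motif in capitals.
Zscan4f promoter: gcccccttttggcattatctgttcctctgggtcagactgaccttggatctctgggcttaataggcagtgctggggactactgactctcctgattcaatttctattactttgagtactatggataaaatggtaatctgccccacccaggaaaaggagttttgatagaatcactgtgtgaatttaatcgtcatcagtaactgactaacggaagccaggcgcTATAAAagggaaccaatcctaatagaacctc

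Each of the 4 promoters holds the letters TATAAA once on the gene's strand and 0 times on the other, starting 31 bases before the annotated start of Zscan4f and Zscan4b, 54 before that of Zscan4c and 65 before that of Zscan4d. Of 32851 promoter windows of 250 bases, 7.59% hold TATAAA on the gene's strand and 12.4% on either strand. The match is a description of the letters.

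Few neighbours of the family were detected. The 5 probes span 608 kb, and within 500 kb on both sides lie 20 other probes, of which 4 were well above background and 9 are named for vomeronasal receptor genes. No detected neighbour was at least 2-fold different in any comparison (0 of 4), beside 1.25% of all probes lower and 0.959% higher for Cd74 against the empty vector, so that 4 probes are too few to tell the locus from the rest. The zinc finger gene Zik1 differed by 0.46 for Cd74 against the empty vector, and Vmn1r70, a vomeronasal receptor gene, by -0.06. The other detected neighbours carry only transcript names and differed by 0.16 and -0.31. None of the 3 other probes that lie between the Zscan4 probes was detected. With 4 detected neighbours, all outside the span of the Zscan4 probes, the locus is sparsely read.

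**Figure D3:**
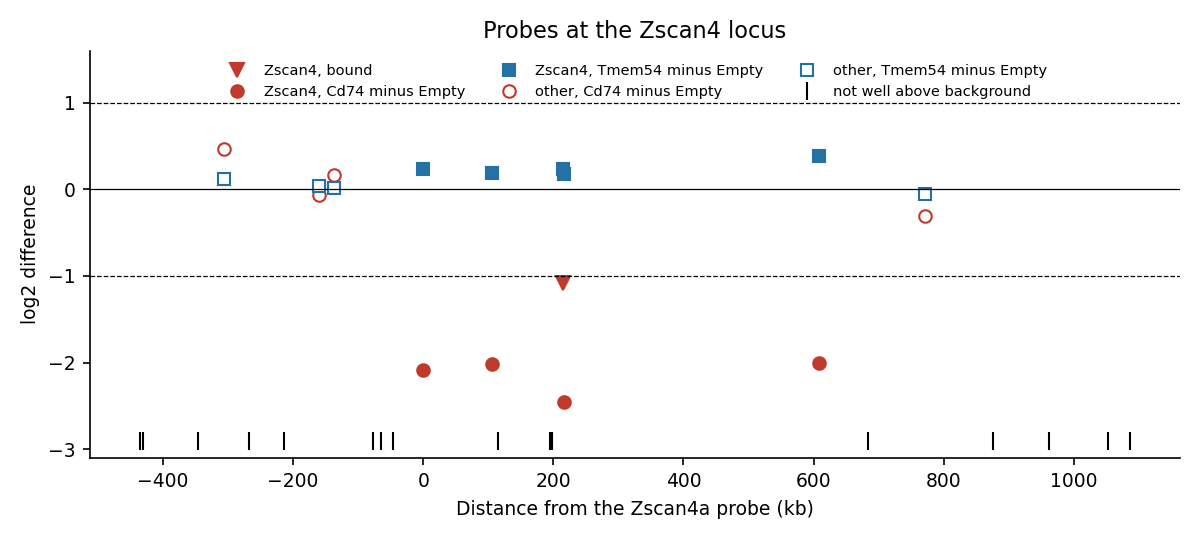
Difference (log2) from the empty vector against the distance in kb from the Zscan4a probe, for Zscan4 probes (filled; the triangle is a bound) and other probes (open); ticks mark probes not well above background. The Zscan4 probes lie between -2.45 and -1.08 with Cd74 and between 0.18 and 0.38 with Tmem54, and the 4 detected neighbours stay within 2-fold.

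Genes with the most similar pattern were sought by the distance between log2 values centred on the mean of the 3 arrays, with the Zscan4f probe as the point of comparison. It lay at -1.47 with Cd74, 0.92 with Tmem54 and 0.55 with the empty vector. Of 14468 genes detected on all arrays, the nearest 8 were AF067061, Gm4340, Tcstv3, BB287469, Spopfm2, D13Ertd608e, Bche and Psca, at distances from 0.08 to 0.24. The other Zscan4 probes measured on all arrays lay at 0.11 for Zscan4a, 0.15 for Zscan4b and 0.31 for downstream Zscan4c. AF067061 had a signal of 186 with Cd74, 960 with Tmem54 and 730 with the empty vector, and Tcstv3 had 362, 1830 and 1518 in that order. The first 4 genes belong to the list of 2-cell genes described below. That list was drawn up with earlier results of these arrays known, so this overlap is not independent support. Spopfm2 differed by -2.23 and D13Ertd608e by -2.15 for Cd74 against the empty vector. Bche encodes butyrylcholinesterase, and its next-brightest probe differed by -0.73 for Cd74 against the empty vector, where the brightest gave -1.84. Psca, for prostate stem cell antigen, differed by -1.73. A pattern over 3 arrays has few values, so likeness here says only that the 3 values were alike.

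Other genes of the 2-cell stage were low on the same array. Their list was drawn up with earlier results of these arrays known, so its direction is not independent support. The array carried 39 of the listed genes, and 24 of these were detected, meaning well above background at least once. For Cd74 against the empty vector 14 of the 24 were at least 2-fold lower and 0 higher, beside 1.41% of 15631 genes lower and 1.02% higher, with a list median of -1.32 and a median of 0.01 over all genes compared. For Tmem54 against the empty vector 0 were at least 2-fold lower and 0 higher, beside 0.818% and 0.515% of 15519 genes, with a median of 0.22 and 4 of 24 below 0. For Cd74 against Tmem54 14 were lower and 0 higher, beside 1.69% and 1.63% of 15421 genes, with a median of -1.47. Tcstv1, a gene named for its variable expression at the 2-cell stage, had a signal of 7.79 with Cd74, which was not well above background, 89.6 with Tmem54 and 76.3 with the empty vector, and was at least 5.41-fold lower with Cd74 than with the empty vector. Tmem92, a transmembrane protein gene, had 11.0 with Cd74, again not well above background, 64.6 with Tmem54 and 53.8 with the empty vector. Gm4340 differed by -1.97 and BB287469 by -1.85 for Cd74 against the empty vector. Sp110, a nuclear body protein gene and the brightest of the list, differed by 0.11 on its brightest probe and by -1.84 on the next. Gm2016, the next in brightness, had 1289 with Cd74, 2025 with Tmem54 and 1841 with the empty vector, and differed by -0.45.

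Genes known to switch the 2-cell state on or off had a median close to that of all genes. Of 44 such genes 43 were detected, and the activator Dppa2 was not. Dux was placed in the list of 2-cell genes instead and was not among those found on the array, so it was not read. For Cd74 against the empty vector 1 was at least 2-fold higher and 0 lower, beside 1.02% and 1.41% of all genes, with a median of 0.05. These counts are near the share over all genes and are no result about the list. That gene was Zfp809, a zinc finger repressor of retroviral elements in mouse embryonic stem cells, with 339 for Cd74, 131 for Tmem54 and 144 for the empty vector. Its difference was 1.30 from the empty vector and 1.45 from Tmem54, but its next-brightest probe gave 0.21 and 0.19. The corepressor gene Trim28, among the brightest of the list, differed by -0.00. Tbx3, also a member of this list, differed by -0.58 from the empty vector and by -0.98 from Tmem54. In each of these comparisons 20 of the 43 genes were below 0. The list pools activators and repressors, whose shifts in opposite directions could offset each other in 1 median. For Tmem54 against the empty vector 0 of 43 were past 2-fold in either direction, beside 0.515% of all genes higher and 0.818% lower, with a median of 0.01.

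Pluripotency genes also had a median close to that of all genes. Of 22 genes 16 were detected, and none was at least 2-fold lower or higher for Cd74 against the empty vector (0 of 16), beside 1.41% and 1.02% of all genes, a count near that share, with a median of 0.09. Pou5f1, for the factor OCT4, had a signal of 274 with Cd74, 333 with Tmem54 and 350 with the empty vector. Nanog had 150 with Cd74, 139 with Tmem54 and 140 with the empty vector. The brightest, Klf4 and Tbx3, differed by 0.18 and -0.58. The nuclear receptor gene Esrrb was the 1 member past 2-fold for Tmem54 against the empty vector, with a difference of 1.18 from dim signals of 37.2 with Tmem54 and 16.2 with the empty vector. In that comparison 0.515% of 15519 genes were higher and 0.818% lower, and 1 gene is no result about the list. Sox2, Zfp42 and Dppa3 were not well above background on any array.

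Related zinc finger genes, telomere genes and DNA damage response genes had 0 members past 2-fold for Cd74 against the empty vector, beside 1.41% of all genes lower and 1.02% higher, so these counts are near the share over all genes. Of 29 other SCAN domain genes on the array, 24 were compared for Cd74 against the empty vector, 0 were past 2-fold, and the median was 0.26, with 5 below 0. Mzf1, a myeloid zinc finger gene, came closest to 2-fold lower with -0.98, and is named after its value was seen. The brightest members, Scand1 and Zkscan1, differed by 0.03 and -0.13. All 20 telomere genes were detected, with 0 past 2-fold in any comparison and medians of 0.04 for Cd74 and -0.01 for Tmem54 against the empty vector. Terf2ip and Rpa1, a shelterin gene and a single-strand DNA binding protein gene, differed by 0.05 and 0.01 with Cd74. The 20 DNA damage response genes had a median of 0.14 for Cd74 and -0.03 for Tmem54 against the empty vector, with 0 past 2-fold. For Cd74 against Tmem54 the stress gene Gadd45b alone passed it, with 1.26, beside 1.63% of 15421 genes higher and 1.69% lower. That single gene is no result about the list. The brightest, Mdm2 and Phlda3, both targets of the factor p53, differed by 0.17 and 0.01 for Cd74 against the empty vector.

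**Figure D4:**
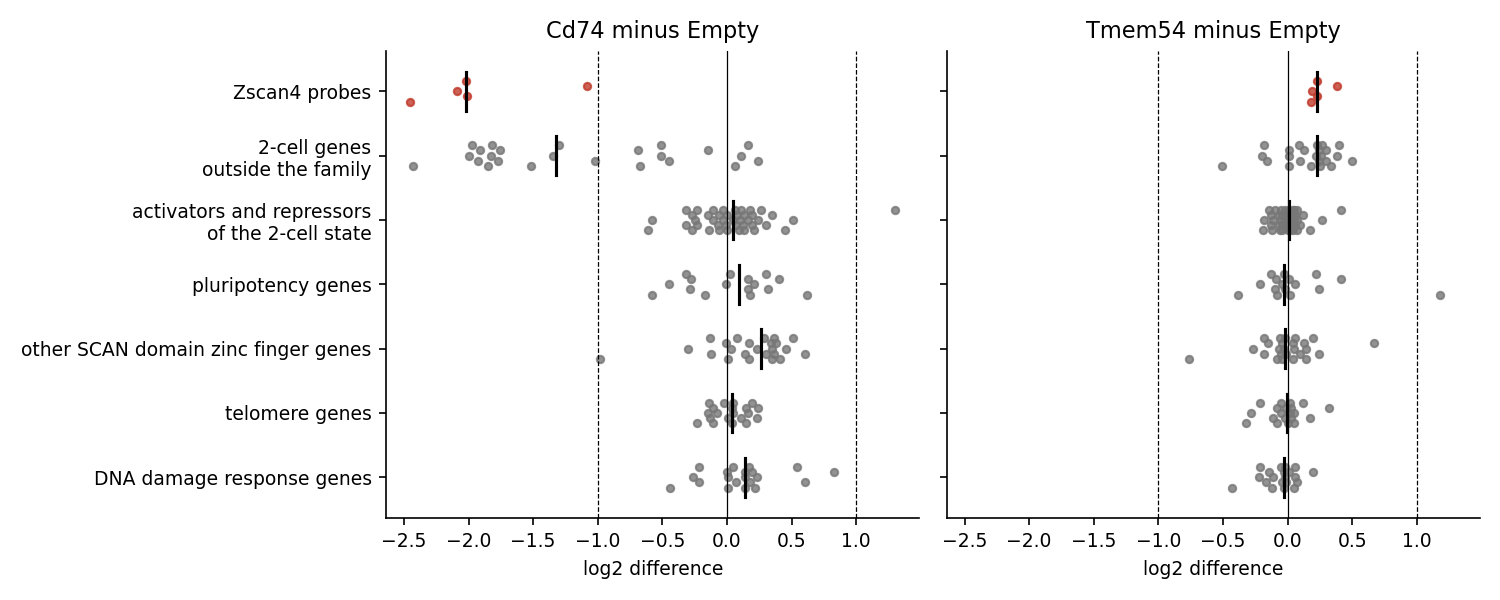
Difference (log2) from the empty vector for the 5 Zscan4 probes and for detected genes of 6 lists, 1 point each, bounds included; black bars are medians and dashed lines mark 2-fold. The Zscan4 median of -2.02 and the 2-cell list median of -1.32 lie left of 2-fold lower with Cd74, and the other 5 list medians lie between 0.04 and 0.26.

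The vectors and the cells were checked on the same arrays. Cd74 had a signal of 10855 with its own vector, 22.4 with Tmem54 and 26.8 with the empty vector, and Tmem54 had 19747 with its own vector and stayed at background level elsewhere. Between 55.7% and 57.2% of spots other than controls were well above background. Of 15 hepatocyte and hepatoma markers 7 were detected, among them Afp, Alb and Trf, while Hnf4a, Ttr, Apoa1 and Apob were among those not well above background. Of 10 embryonic stem cell markers 6 were detected on each array, with a summed signal of 1026 for Cd74, 1154 for Tmem54 and 1193 for the empty vector. Of 6 germ cell markers 2 were detected, and Ddx4 and Dazl were not. For fibroblast markers 7 of 9 were detected, with sums of 92013, 82627 and 90924 in the same order. Dcn made up most of that sum, with 75618 for Cd74, 57024 for Tmem54 and 67724 for the empty vector. The other 6 fibroblast markers were below 0 for Cd74 against the empty vector, and the median of the 7 was -0.25. The collagen genes Col1a1 and Col3a1 differed by -0.76 and -0.57, the receptor gene Pdgfrb by -0.55, and both collagen genes by -1.08 for Cd74 against Tmem54. For macrophage and B cell markers 6 of 10 were detected, with 10105, 10966 and 11119 in the same order. The hepatocyte markers summed to 71643 with Cd74, 97258 with Tmem54 and 87012 with the empty vector, and Alb differed by -0.87 with Cd74 and 0.83 with Tmem54 from the empty vector. The part of these shifts in the Zscan4 result was not tested. In RNA of a whole culture, fewer cells that express Zscan4 and less Zscan4 RNA per cell cannot be told apart.

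The size of the Zscan4 difference changed with the normexp setting, and its direction did not change with any setting. With normexp correction and an offset of 50 the median of the 5 probes was -1.32 for Cd74 against the empty vector and -1.44 against Tmem54, in place of -2.02 and -2.32. The upstream Zscan4c probe then had a bound of only -0.26, which does not settle whether it was 2-fold lower, and the other 4 probes remained past 2-fold. The median spot signal minus local background gave medians of -1.94 against the empty vector and -2.30 against Tmem54, close to the main setting. Over all 8 settings and 36 probe values, differences and bounds for Cd74 against the empty vector lay between -2.47 and -0.26, and those for Tmem54 against the empty vector between 0.12 and 0.39.

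**Figure D5:**
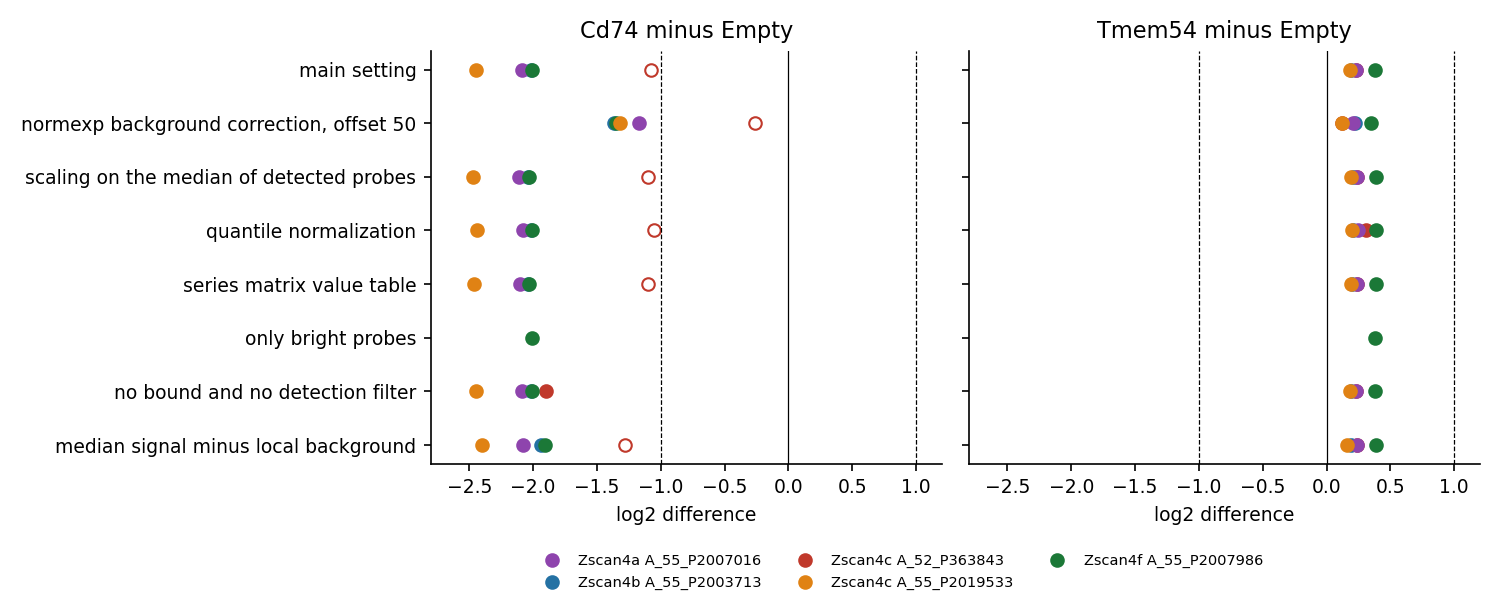
Difference (log2) from the empty vector of each Zscan4 probe under 8 processing settings; open points are bounds and dashed lines mark 2-fold. All 36 values for Cd74 are below 0, between -2.47 and -0.26, and all 36 for Tmem54 lie between 0.12 and 0.39.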

How the data were processed

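RNA from 3 cultures, 1 per vector, was measured on 1-colour (Cy3) Agilent mouse arrays. Groups follow the transfection label. Per the file headers and the submitters' processing notes, the scanner intensity values come from Feature Extraction 12.0.3.1, with spatial and multiplicative detrending switched on in the headers. The labels' protocols give column-purified total RNA treated with DNase. The deposited series value table holds a linear signal, which matched the scanner's processed signal over a single constant for each array (559.8 for Cd74, 580.7 for Tmem54, 580.3 for the empty vector), with column medians of 0.0393, 0.039 and 0.0409.

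Control spots and outlier flags (119 to 135 spots per array) were left out, replicate spots averaged on the log2 scale, and the 75th percentile of 59305 spots other than controls (656.4, 692.7 and 686.8 in the same order) subtracted. A probe not well above background on 1 array gives a bound against the higher of its own value and the lowest value well above background. A gene took its brightest detected probe. RefSeq names (GRCm38.p6) matched 33767 probes by accession, 9866 by symbol and 310 by synonym, and 12662 had none. Named are all Zscan4 probes, list members past 2-fold (up to 6 by size of Cd74 against Tmem54), the brightest 2 per list, the 8 genes nearest in pattern and the transfected genes. Cell markers, detected neighbours and Mzf1 are named besides, and some named items are not reported here. Members and lists were chosen with earlier results of these data known. No test was possible with 1 array per vector, and their number limits precision. limma 3.58.1 (R 4.3.3), pandas 2.3.3 and Biopython 1.88 were used, and the counting was tested on simulated data. Alternatives were normexp correction, median and quantile scaling, the value table, brightness filters, the median spot signal and other probes of a gene.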

Additional observations from a re-analysis of the deposited data

How the results depend on the processing

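For Cd74 against the empty vector, normexp correction gave a Zscan4 median of -1.32 (main -2.02), and for Cd74 against Tmem54 -1.44 (main -2.32). No other setting moved a Zscan4 median by more than the model error, and no setting reversed one. The filter on bright probes kept only Zscan4f. Counts of all probes at least 2-fold apart also moved. For Cd74 against the empty vector the main setting gave 308 higher and 402 lower, normexp correction 90 and 90, bright probes 36 and 43, no detection filter 1722 and 1908, and the median spot signal 720 lower. For Tmem54 against the empty vector it gave 197 higher and 247 lower, normexp correction 73 and 58, bright probes 4 and 22, no detection filter 1272 and 1872, and the median spot signal 306 and 480. For Cd74 against Tmem54 it gave 440 higher and 470 lower, normexp correction 131 and 149, bright probes 76 and 82, and no detection filter 2071 and 1688. Next-brightest probes of the 2-cell list gave medians of -1.91 over 4 genes for Cd74 against the empty vector (main -1.32 over 24) and -2.00 over 3 genes against Tmem54 (main -1.47). These medians cover unlike sets of genes, so their gap mixes a change of probe with a change of genes. The 4 genes are AF067061, Sp110, Usp17lc and Zfp352. Against the empty vector their brightest probes gave -1.91, 0.11, -1.52 and 0.06 in that order. Their next-brightest probes gave -1.98, -1.84, -0.91 and -3.38. The cause of these shifts was not tested. Signal near background limits the upstream Zscan4c probe most. No paired analysis was possible because each vector has 1 array.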
